A study of Mus musculus with 24 samples.

Results

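The 6 AL + VC spleens, from leukemic mice fed ad libitum and given vincristine, differed widely in the mRNA of mature B cells, and this account follows the 3 with the higher against the 3 with the lower B-cell score. The score was the mean rlog value of Ms4a1 (CD20), Cr2 (complement receptor CD21) and Fcer2a (CD23), and the rlog is a log2-scaled expression value from which much of the noise of low counts has been shrunk. Mice 17, 18 and 41 scored 11.72, 12.29 and 11.50, against 10.73, 9.85 and 10.93 in mice 13, 14 and 37. Mouse 41, the lowest of the higher set, and mouse 37, the highest of the lower set, lay on the 2 sides of the divide at 11.50 and 10.93. The 6 mice are 6 of 24 in the series, and a second score from 7 other B-cell genes split them the same way. Because the mice were sorted by a readout of the same libraries, every difference between the 2 sets below is a description without a test. Genes of the B lineage are left out of the descriptions of genes and lists. Counts and shares over all genes, and the correlations between libraries, still include them. The name high B-cell recovery could not be checked, since each spleen was sampled once and no earlier time was measured, so the sets are called the higher-score and the lower-score mice.

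All mice were male C57BL/6J of 20 weeks with B-cell acute lymphoblastic leukemia (B-ALL), which in this study came from injected syngeneic leukemia cells carrying BCR-ABL and GFP, and spleen RNA was sequenced after ribosomal RNA depletion. The groups of 6 mice were AL + VC (free feeding with vincristine), FMD + VC (cycles of a fasting-mimicking diet with vincristine), FMD (the diet with vehicle) and AL (free feeding with vehicle). The B-cell score ran between 11.74 and 12.53 in FMD + VC, between 9.91 and 11.19 in FMD and between 9.07 and 10.32 in AL. The model has limits: all leukemias came from the same kind of transferred cell, and a whole spleen mixes leukemic cells with lymphoid, myeloid and erythroid cells, so that fewer cells of a type and less RNA per cell cannot be told apart.

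Vincristine binds tubulin and stops dividing cells in mitosis. The mouse spleen, unlike the adult human spleen, keeps blood-forming tissue through life: its red pulp makes erythrocytes, platelets and neutrophils, while its white pulp holds T-cell zones and B-cell follicles. Neutrophil precursors fill their granules in order, with myeloperoxidase and the serine proteases first (primary granules), lactoferrin and the cathelicidin next (secondary granules) and the gelatinase last, so granule mRNA marks immature stages, whereas chemokine receptors such as Cxcr2 mark mature cells. BCR-ABL is a constitutively active tyrosine kinase that signals through STAT5, and Socs2, Cish and Pim1 are well known STAT5 targets.

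Depth could not be read from rlog values. The median over genes was between 7.73 and 7.86 in the 24 libraries, no 2 libraries were identical, and the non-coding RNA Gm26917 took between 9.73% and 30.4% of the summed values on the linear scale. Among the AL + VC mice that share was 25.5%, 11.1% and 22.9% in mice 17, 18 and 41, against 18.4%, 11.3% and 17.3% in mice 13, 14 and 37, so the ranges of the sets overlapped. Rn18s-rs5, a ribosomal RNA sequence, stood at 11.04, 9.77 and 13.18 in the higher-score mice, against 9.33, 9.29 and 8.35 in the lower-score mice, and its part in the results was not tested. Across genes, Pearson's r lay between 0.980 and 0.985 within the higher-score set, between 0.979 and 0.990 within the lower-score set and between 0.942 and 0.971 for pairs across the sets.

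Among 16559 genes whose rlog, averaged over the 24 mice, reached the log2 of 10, 3360 genes (20.3%) had all 3 higher-score mice above all 3 lower-score mice, and 3527 (21.3%) had them below. With a log2 difference of at least 1 as well, 404 genes were higher (2.44%) and 803 lower (4.85%). Without the B lineage these became 361 of 16332 genes higher (2.21%) and 797 lower (4.88%), while the median difference over all genes was 0.01. Without lower-score mouse 37 the 404 genes became 616, and without mouse 14 they became 273, although no overlap is easier to reach with 1 mouse fewer. Among the genes with the largest positive differences outside the B lineage were several of T cells. They included Dapl1 (3.03), Cd8b1 (2.79), Cd8a (2.28), Cd3e (2.13), Cd3d (2.02) and Skap1 (1.94). The other genes between Dapl1 and Skap1 in size of difference were Tdrp (2.39), Rn18s-rs5 (2.34), F2rl1 (2.22), Tmie (2.05), Ms4a4b (2.04) and Lrrc75b (1.97). Those with the largest negative differences were Gria2 (-4.24), Xist (-4.12), Crisp1 (-4.09), Pcdh11x (-4.07), Mrgpra1 (-4.06), Myl10 (-3.98) and Pax7 (-3.91), most of them genes of brain, muscle or other tissues, and the neutrophil gene Chil3 (-3.48).

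**Figure D1:**
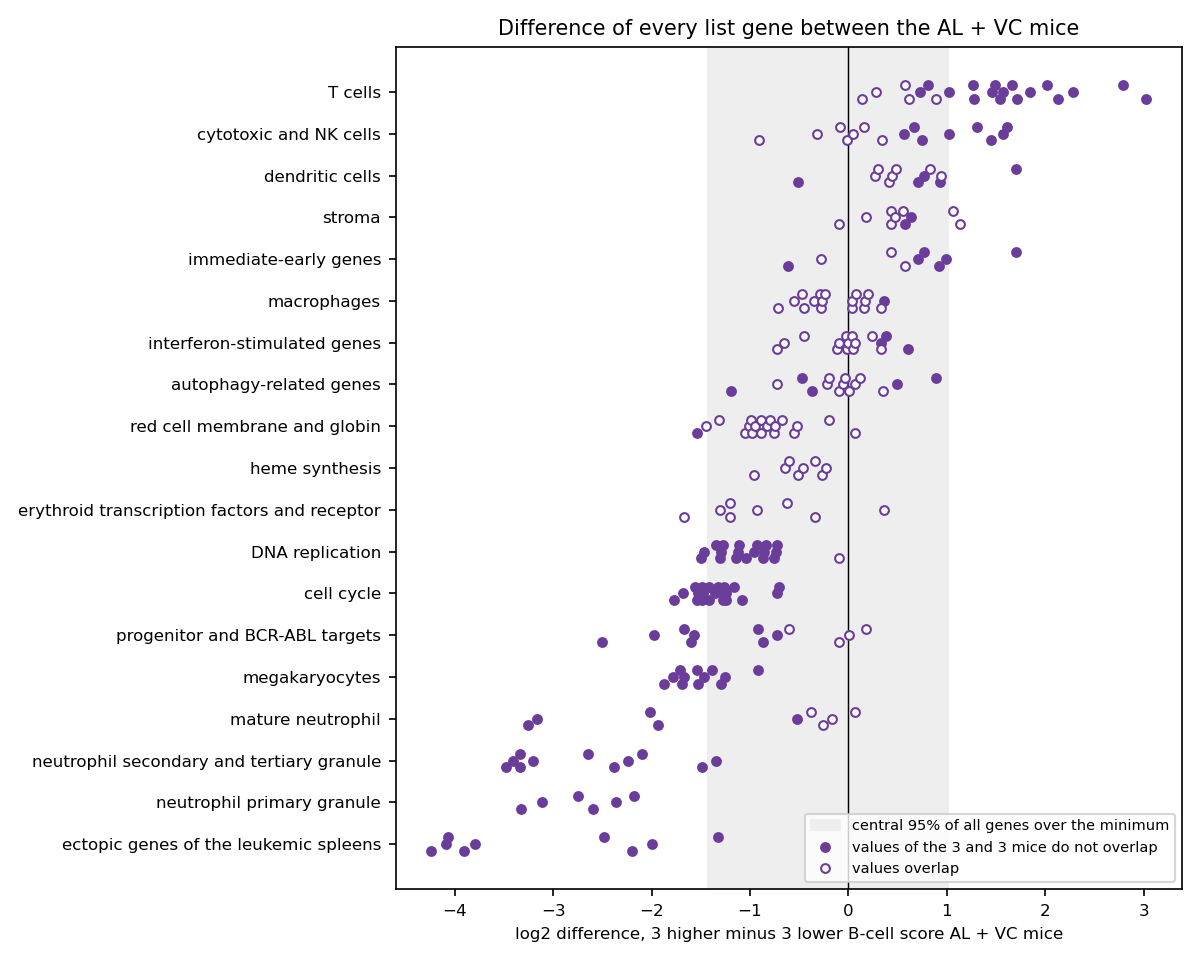
Each point is 1 gene of a list, placed by its log2 difference, the mean of the 3 higher-score minus the mean of the 3 lower-score AL + VC mice. Filled points have no overlap between the sets, and the grey band holds the central 95% of all 16559 genes. The neutrophil granule, megakaryocyte, cell cycle and ectopic genes lie left of 0, the T-cell genes right of 0, and erythroid genes are nearly all open points.

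The sets were placed on a scale made from mice that the split did not use. For this, FMD + VC was tested against AL in the 18 mice outside AL + VC (limma on rlog values, Benjamini-Hochberg adjusted p under 0.05). The mean B-cell score was 12.25 in FMD + VC and 9.65 in AL, so this scale and the split are not independent. FMD + VC spleens were higher for 3417 genes (20.6%) and lower for 3497 (21.1%), or 41.8% of the 16559 in all. Over the 1470 of these genes that differed at least 2-fold and were not of the B lineage, each AL + VC mouse was given a position, with the AL mean at 0 and the FMD + VC mean at 1. The median position was 1.03, 0.97 and 1.05 in mice 17, 18 and 41, against 0.24, -0.04 and 0.31 in mice 13, 14 and 37. The higher-score mice thus stood at the FMD + VC mean (1.01 ± 0.04, SD, n = 3) and the lower-score mice nearer to the AL mean (0.17 ± 0.19, SD, n = 3), while the FMD mice stood between 0.10 and 0.63. FMD mouse 9, at 0.63, was the one nearest to FMD + VC and also had the highest B-cell score of its group.

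**Figure D2:**
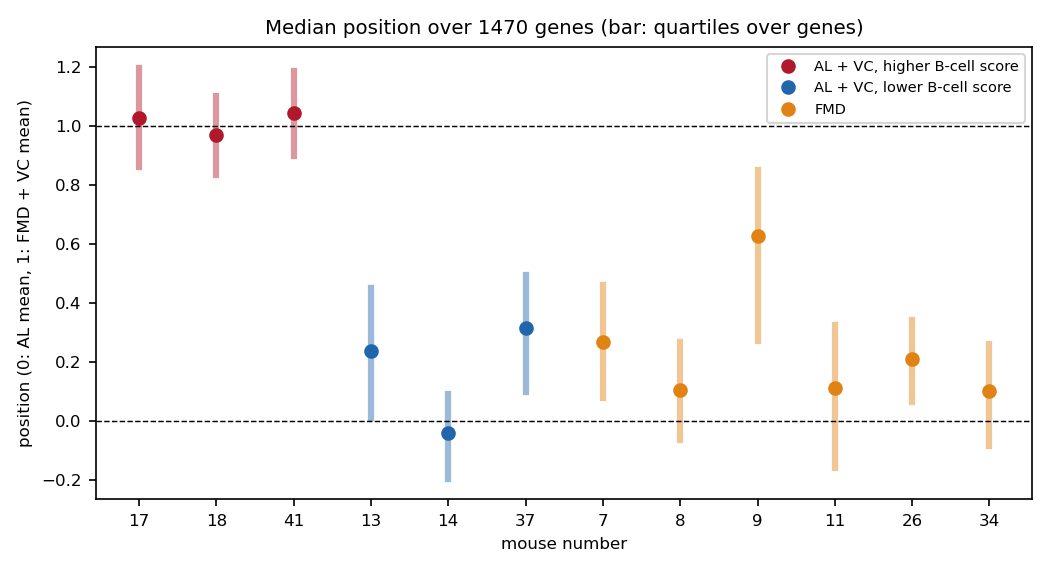
The y axis gives the position of each mouse between the AL mean (0) and the FMD + VC mean (1), as the median over 1470 genes (points) with the quartiles over genes (bars), and the x axis gives mouse numbers. The higher-score AL + VC mice lie at 0.97 to 1.05, the lower-score mice at -0.04 to 0.31 and the FMD mice at 0.10 to 0.63.

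The placement was also counted gene by gene. Of the 361 genes higher in the higher-score mice, 334 (92.5%) were also higher in FMD + VC than in AL and 0 were lower, against 20.6% of all genes. Of the 797 lower genes, 742 (93.1%) were lower in FMD + VC and 0 higher, against 21.1% of all genes. The mean of the higher-score mice lay inside the FMD + VC range for 316 of the 361 and 719 of the 797 genes, and the mean of the lower-score mice lay inside the AL range for 280 and 655. Since the AL + VC libraries were chosen by readout, and FMD + VC and AL differ in that same readout, these counts carry no p and are no independent support.

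The placement did not hold for every list. Over 13 red cell genes of the scale the median position was 0.77, 0.17 and 1.12 in mice 17, 18 and 41. In mice 13, 14 and 37 it was 0.54, -0.62 and 1.07, so the sets overlapped. Neutrophil granule genes were another exception and stood in the lower-score mice above their level in AL. The 5 mature neutrophil genes of the scale also lay beyond the AL mean, at medians of -1.05, -1.26 and -0.72 in mice 13, 14 and 37. All 6 primary granule genes over the minimum were lower in the higher-score mice without overlap, with a median difference of -2.68, against 21.3% of all genes. Mpo, which encodes myeloperoxidase (chromosome 11, 87793581 to 87804413, GRCm38), had values of 5.03, 6.32 and 4.77 in mice 17, 18 and 41, against 8.46, 8.62 and 9.03 in mice 13, 14 and 37. It was 10.1-fold lower in the higher-score mice on the rlog scale, with FMD + VC between 4.52 and 7.63, FMD between 5.63 and 7.43 and AL between 6.25 and 8.14. Elane, the neutrophil elastase gene, read 3.63, 4.47 and 3.41 in the higher-score mice, against 6.73, 6.87 and 7.27 in the lower-score mice. Prtn3 (-2.75), Fcnb (-2.60), Ctsg (-2.36) and Ms4a3 (-2.18) followed in the same direction. Cebpe, a transcription factor of the granule program, was under the minimum and is not counted.

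Secondary and tertiary granule genes showed the same split in 11 of 11 members, against 21.3% of all genes, with a median difference of -2.64. Ltf, which encodes the iron-binding lactoferrin, stood at 6.32, 6.81 and 6.35 in mice 17, 18 and 41, against 9.84, 10.05 and 9.60 in mice 13, 14 and 37, with no overlap. Camp (cathelicidin) read 5.19, 6.03 and 5.37 against 9.17, 9.12 and 8.51 in the same order of mice. Chil3, a chitinase-like protein of myeloid cells, read 5.26, 6.12 and 5.76 in the higher-score mice, against 9.32, 9.33 and 8.92 in the lower-score mice. Ngp (-3.34), Lcn2 (-3.20), Cd177 (-2.64), Mmp8 (-2.38), Itgb2l (-2.24), Olfm4 (-2.10), Ltb4r1 (-1.49) and the gelatinase Mmp9 (-1.35) completed the list.

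The mean over the primary granule genes was 3.57, 4.12 and 3.45 in the higher-score mice, against 6.33, 6.32 and 6.67 in the lower-score mice, which was above every one of the other 21 mice, whose highest value was 5.84, in AL. Over the secondary and tertiary genes it was 4.84, 5.44 and 4.96 in mice 17, 18 and 41, against 7.79, 7.93 and 7.42 in mice 13, 14 and 37, and at most 7.32 in any of the other 21. Gene by gene, the lower-score mice stood above all 21 other mice for 6 of the 6 primary and 5 of the 11 secondary and tertiary granule genes. The same held for 3 of the 9 mature neutrophil genes described next, and for 39 of all 16559 genes (0.236%). They stood below all 21 others for 10 genes (0.0604%).

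Genes of mature neutrophils were split. S100a8, a calcium-binding alarmin, read 6.00, 7.48 and 7.15 in the higher-score mice, against 9.98, 10.66 and 9.77 in the lower-score mice, and S100a9 (-3.17), Retnlg (-2.01), Trem1 (-1.94) and Clec4d (-0.52) were also lower without overlap. The receptor gene Cxcr2 read 6.88, 7.86 and 6.31 against 7.39, 6.99 and 7.46 in the lower-score mice, with overlap, and Csf3r (-0.38), Mxd1 (-0.16) and Il1b (0.07) overlapped as well. So all 17 granule genes over the minimum separated the sets, against 5 of the 9 mature neutrophil genes. Ly6g and Stfa2l1 were under the minimum.

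**Figure D3:**
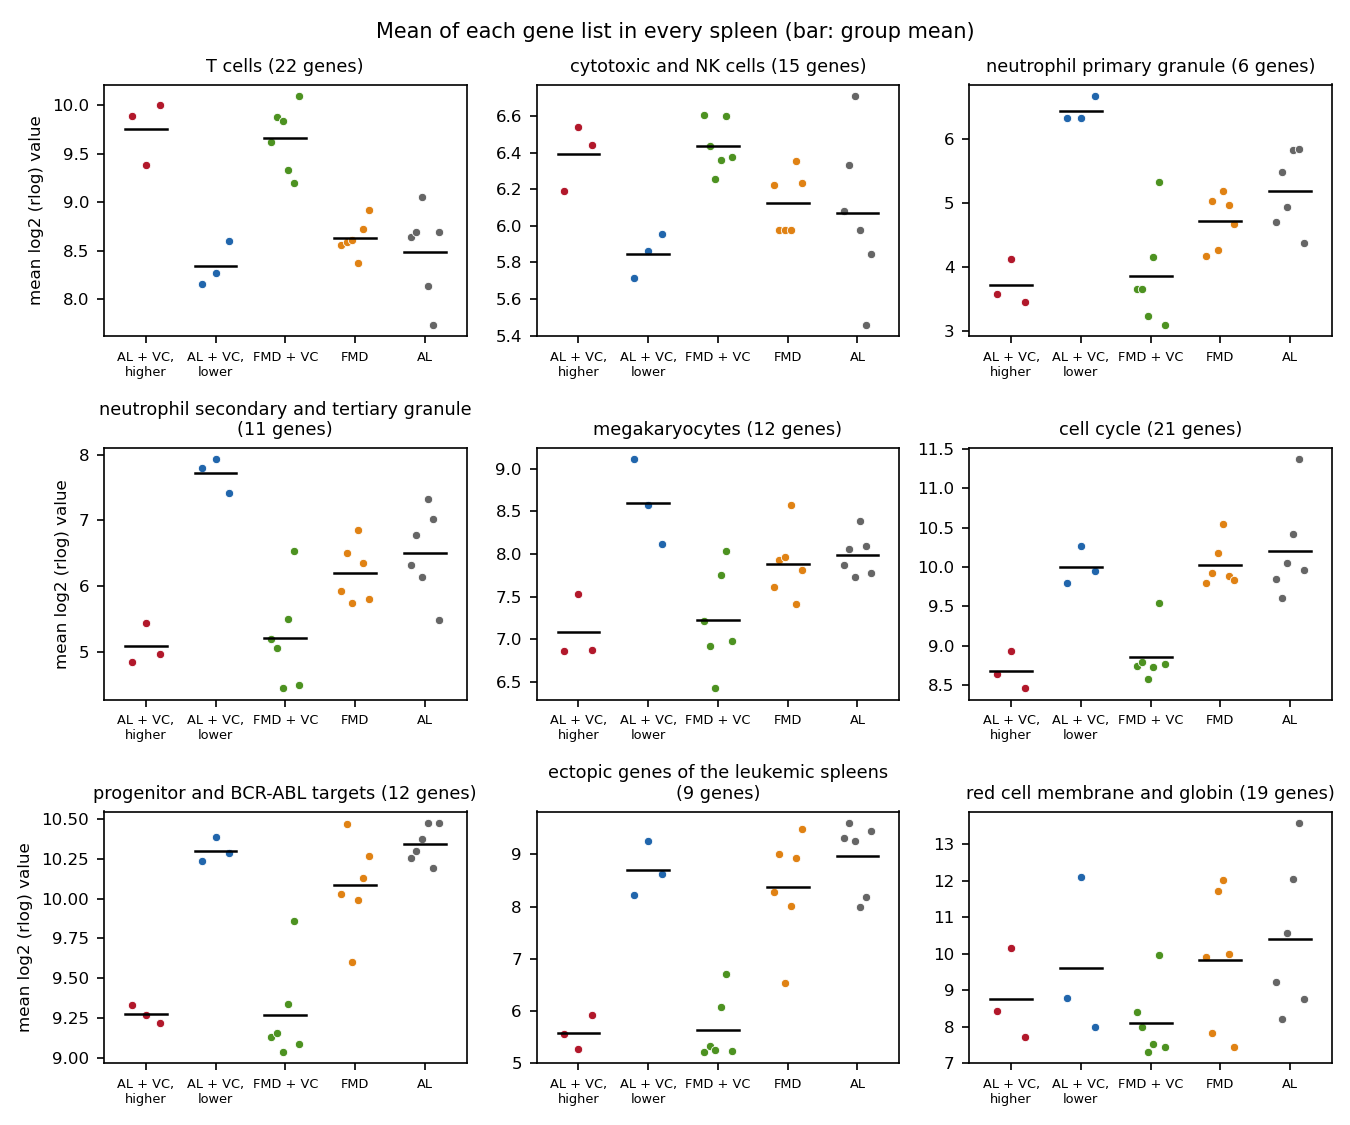
Each point is 1 spleen and gives the mean rlog value of the genes of a list on the y axis, with the 2 AL + VC sets on the left, then FMD + VC, FMD and AL, and the bar marks the mean of a set or group. The lower-score mice stand above all other mice in both neutrophil granule lists, and the red cell list spreads widely within each group.

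Promoter sequence is shown for Chil3, the neutrophil list member with the largest difference, and for Tfrc, an erythroid member described further on. The windows hold the 250 bases before the RefSeq start of the gene (GRCm38.p6), and capitals mark AGATAA or its reverse complement, the core that GATA factors bind. Both strands were searched for AGATAA and for TTGCNNAA, a C/EBP core, and 9.99% and 9.56% of all 32851 promoter windows of this length held them. The Chil3 window lies at chr3:106167565-106167814 on the minus strand, and holds 1 GATA match, with 116 bases between it and the start, and no C/EBP match. The Tfrc window lies at chr16:32608646-32608895 on the plus strand and holds neither. The window of Camp also held neither and is not printed, because GENCODE starts a transcript inside it. Nfe2, the other erythroid member chosen, is named only.
Chil3: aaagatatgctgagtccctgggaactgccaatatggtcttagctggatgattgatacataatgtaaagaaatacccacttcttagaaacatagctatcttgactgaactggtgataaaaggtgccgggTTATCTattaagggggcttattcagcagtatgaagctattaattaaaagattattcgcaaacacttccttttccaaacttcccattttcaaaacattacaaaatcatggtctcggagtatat
Tfrc: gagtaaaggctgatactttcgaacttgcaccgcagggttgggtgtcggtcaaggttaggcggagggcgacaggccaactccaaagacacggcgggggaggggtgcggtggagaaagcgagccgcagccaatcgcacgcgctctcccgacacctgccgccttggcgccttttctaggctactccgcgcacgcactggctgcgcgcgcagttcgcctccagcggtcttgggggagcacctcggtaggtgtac

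Megakaryocyte and platelet genes were lower in the higher-score mice in 12 of 12 members without overlap, against 21.3% of all genes, with a median difference of -1.53. Pf4, which encodes platelet factor 4, read 7.37, 8.35 and 7.47 in mice 17, 18 and 41, against 10.14, 9.64 and 9.01 in mice 13, 14 and 37. Ppbp (-1.78), the integrin gene Itga2b (-1.69), Gp5 (-1.67), Gp1bb (-1.54), Treml1 (-1.53), Vwf (-1.46), Gp6 (-1.39), Gp9 (-1.30), Gp1ba (-1.25) and Clec1b (-0.92) showed the same direction. The list mean was 6.86, 7.53 and 6.87 against 9.11, 8.57 and 8.11 in the lower-score mice, with AL between 7.73 and 8.38, so mice 13 and 14 but not mouse 37 stood above the AL range. Factor XIII gene F13a1, expressed by platelets and monocytes and held in the monocyte list, read 5.75, 7.03 and 6.18 against 8.25, 7.85 and 8.07 in the lower-score mice.

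Of the mast cell and basophil genes, 4 of the 5 over the minimum were lower without overlap in the higher-score mice, against 21.3% of all genes. Prss34, a basophil protease gene, read 3.37, 3.22 and 3.12 in the higher-score mice, against 5.59, 5.16 and 5.40 in the lower-score mice. Cpa3, the mast cell carboxypeptidase gene, read 4.35, 4.49 and 4.51 against 5.71, 7.78 and 6.23 in the lower-score mice. Their defining genes Mcpt8, Ms4a2, Fcer1a and Cd200r3 were under the minimum.

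Genes of dividing cells also separated the sets. All 21 cell cycle genes and 18 of 19 DNA replication genes were lower in the higher-score mice without overlap, against 21.3% of all genes, with median differences of -1.35 and -1.04. Ccnb1, the mitotic cyclin B1 gene, read 6.98, 7.45 and 7.03 in mice 17, 18 and 41, against 8.77, 9.20 and 8.79 in mice 13, 14 and 37. Mki67, the proliferation marker Ki-67, read 12.04, 12.77 and 11.94 against 13.16, 14.30 and 13.36 in the lower-score mice. Bub1 (-1.68), Kif11 (-1.55) and Cdk1 (-1.54) had the next largest differences, and Mcm10 (-1.50), a replication initiation factor gene, had the largest of the replication genes. The cell cycle mean was 8.63, 8.93 and 8.45 in the higher-score mice, against 9.80, 10.27 and 9.95 in the lower-score mice, which is inside the ranges of AL (9.60 to 11.37) and FMD (9.79 to 10.54).

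Targets of BCR-ABL signalling and genes of progenitors were lower in the higher-score mice in 8 of 12 members without overlap, against 21.3% of all genes, with a median difference of -0.89. Socs2, a STAT5-induced suppressor of cytokine signalling, read 8.70, 8.75 and 8.94 in the higher-score mice, against 11.15, 11.33 and 11.42 in the lower-score mice, a 5.67-fold difference. Cish, a related STAT5 target, read 8.46, 7.83 and 8.53 against 10.11, 10.46 and 10.18 in the lower-score mice. The progenitor transcription factor gene Myb read 9.38, 9.32 and 9.15 against 10.91, 10.98 and 10.96, while Erg (-1.60), Sox4 (-1.57), Pim1 (-0.91), Bcr (-0.87) and Abl1 (-0.72) also separated the sets. Abl1 reads cannot be divided between the endogenous gene and any transgene in a table of gene values, and the same holds for Bcr. Bcl2l1 (-0.61), Ccnd2 (-0.10), Cd34 (0.01) and Meis1 (0.18) overlapped.

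Il2ra, the gene of CD25, which regulatory T cells, activated T cells and pre-B cells carry, was lower in the higher-score mice at 9.28, 9.11 and 9.59, against 11.32, 12.54 and 12.02 in the lower-score mice. Foxp3, the transcription factor of regulatory T cells, ran the other way with 7.96, 7.43 and 8.10 against 6.95, 6.36 and 7.16.

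A set of 9 genes not usually expressed in spleen but high in these leukemic spleens, chosen with the values of this series known, was lower in the higher-score mice in 9 of 9 members without overlap, against 21.3% of all genes, with a median difference of -3.79. All 9 were also lower in FMD + VC than in AL (limma adjusted p under 0.05). Because the set was taken from these same data, its count only describes the split and is no test. Gria2, a glutamate receptor gene of neurons, read 8.03, 7.80 and 8.44 in mice 17, 18 and 41, against 12.17, 12.65 and 12.16 in mice 13, 14 and 37. Pax7, a transcription factor of muscle stem cells outside that set, read 6.30, 6.02 and 6.80 against 9.97, 10.38 and 10.48 in the lower-score mice. The levels of Gria2 in the higher-score mice lay inside the FMD + VC range (7.73 to 10.47), and those in the lower-score mice inside the AL range (10.73 to 12.64) except in mouse 14, at 12.65.

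Xist, the RNA that coats the inactive X chromosome of female cells, read 10.68, 10.48 and 11.11 in the higher-score mice, against 14.98, 15.20 and 14.45 in the lower-score mice, although every mouse is labelled male. It stood between 10.45 and 12.99 in FMD + VC, between 12.43 and 15.28 in FMD and between 13.88 and 15.68 in AL. The 4 Y-linked genes ran the other way. Kdm5d, a Y-linked histone demethylase gene, read 10.02, 9.89 and 9.97 against 9.06, 8.38 and 8.95, and Ddx3y read 10.69, 10.56 and 10.49 against 9.67, 9.68 and 9.65 in the lower-score mice. Eif2s3y (0.71) and Uty (0.61) were also higher in the higher-score mice without overlap. The sex of the mouse that gave the injected cells was not stated in the sources.

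**Figure D4:**
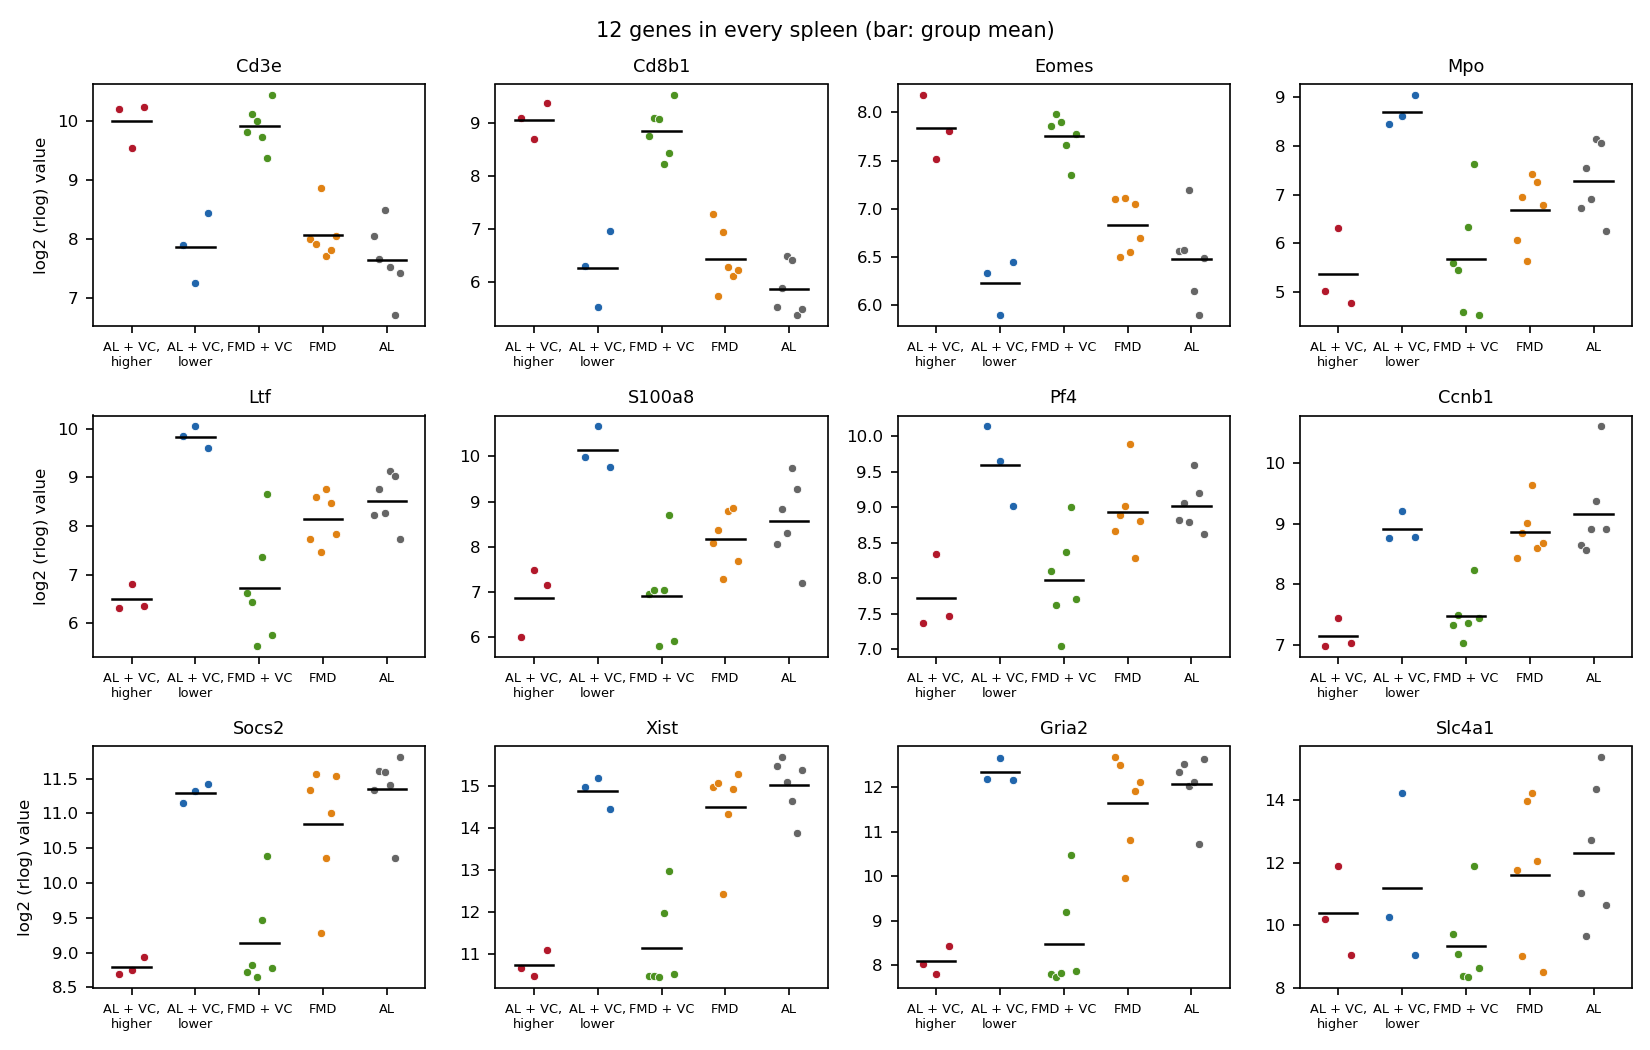
Each point is 1 spleen and gives the rlog value of the gene named above the panel on the y axis, with the 2 AL + VC sets on the left, then FMD + VC, FMD and AL, and the bar marks the mean of a set or group. Cd3e, Cd8b1 and Eomes are higher in the higher-score mice, 8 genes from Mpo to Gria2 are lower without overlap, and Slc4a1 overlaps.

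T-cell genes ran in the opposite direction. Of 22 T-cell genes, 17 were higher in the higher-score mice without overlap and 0 lower, with a median difference of 1.47, against 20.3% of all genes higher without overlap. Cd3e, a chain of the T-cell receptor complex, read 10.20, 9.54 and 10.24 in mice 17, 18 and 41, against 7.89, 7.26 and 8.44 in mice 13, 14 and 37. Genes of the CD8 lineage had larger differences: Cd8b1 read 9.09, 8.68 and 9.36 in the higher-score mice, against 6.30, 5.53 and 6.94 in the lower-score mice, a 6.91-fold difference. Cd8a read 10.05, 9.69 and 10.13 against 7.69, 7.38 and 7.97, while Cd4, which macrophages and dendritic cells of the spleen also express at low levels, read 11.03, 10.59 and 11.00 against 9.47, 9.23 and 10.12 in the lower-score mice. Dapl1, a gene of naive and memory CD8 T cells, read 6.62, 6.59 and 6.54 against 3.98, 2.85 and 3.84.

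The mean over the 22 genes was 9.89, 9.38 and 9.995 in the higher-score mice, against 8.16, 8.27 and 8.60 in the lower-score mice, with FMD + VC between 9.20 and 10.09 and AL between 7.74 and 9.05. Not all T-cell genes separated the sets. The interleukin 7 receptor gene Il7r, shared with precursor B cells, read 10.68, 10.39 and 11.68 in the higher-score mice, against 10.84, 10.92 and 10.59 in the lower-score mice. Tcf7, a transcription factor of naive T cells, read 11.90, 11.28 and 11.95 against 10.39, 11.56 and 11.34 in the lower-score mice. Themis (0.28), Ubash3a (0.58) and Thy1 (0.89) overlapped too.

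Cytotoxic and NK-cell genes were higher without overlap in 8 of 15 members and lower in 0, against 20.3% and 21.3% of all genes. Eomes, a transcription factor of memory CD8 T cells and NK cells, read 8.18, 7.52 and 7.81 in the higher-score mice, against 6.34, 5.90 and 6.45 in the lower-score mice. Perforin gene Prf1 read 6.95, 6.64 and 7.03 against 5.57, 4.97 and 5.74, and Tbx21 (1.57) and the chemokine gene Ccl5 (1.31) followed. The NK receptor gene Ncr1 (0.05) overlapped, as did the granzyme gene Gzmb (-0.09). Gzma read 5.61, 6.97 and 5.72 in the higher-score mice, against 6.85, 7.87 and 6.30 in the lower-score mice, and FMD + VC (5.33 to 7.48) was lower than AL (7.89 to 9.49) by 2.37 log2 units (limma adjusted p = 0.000915).

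In the list of regulatory T-cell and checkpoint genes, 8 of 12 were higher and 1 lower without overlap, against 20.3% and 21.3% of all genes. Among checkpoint genes, Cd274 (PD-L1, 0.86), Pdcd1lg2 (0.98), Lag3 (0.76), Ctla4 (0.71) and Icos (0.69) were higher in the higher-score mice without overlap. Tigit (0.57) and Havcr2 (0.35) overlapped. Pdcd1, the gene of PD-1, read 7.91, 7.10 and 8.05 against 7.88, 9.29 and 8.14 in the lower-score mice, with overlap.

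Erythroid genes were mostly below 0 in difference, but the sets overlapped. In the lists of transcription factors, heme synthesis and red cell genes, 7 of 8, 8 of 8 and 18 of 19 genes had negative differences, with medians of -1.06, -0.49 and -0.89. Of the 35 genes 1 separated the sets, against 21.3% of all genes lower without overlap. Gata1, the lineage transcription factor, read 6.48, 7.13 and 6.10 in the higher-score mice, against 7.76, 8.88 and 6.67 in the lower-score mice. Slc4a1, the band 3 anion exchanger of the red cell membrane, read 10.20, 11.90 and 9.06 against 10.25, 14.23 and 9.06 in the lower-score mice. Alas2, the first enzyme of erythroid heme synthesis, read 8.23, 10.44 and 7.61 against 8.10, 11.97 and 8.02. In each set 1 mouse stood above its partners, mouse 18 among the higher-score and mouse 14 among the lower-score mice, with red cell list means of 10.15 and 12.09 and the other 4 mice between 7.71 and 8.77. The exception was Tfrc, the transferrin receptor gene, which dividing cells of all kinds also need for iron, at 11.02, 11.58 and 10.84 in the higher-score mice, against 12.12, 13.90 and 12.03 in the lower-score mice. Nfe2, a factor of both erythroid cells and megakaryocytes, had the largest difference among the erythroid lists, -1.67, at 6.76, 7.75 and 6.82 against 8.56, 10.03 and 7.75, with mouse 18 level with mouse 37 to 2 decimals.

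Macrophage genes, of red pulp and other macrophages together, showed no common shift. Of 17 genes 1 was higher without overlap and 0 lower, against 20.3% and 21.3% of all genes, with a median difference of -0.24. Differences were above 0 for 8 genes and below 0 for 9. Csf1r, the receptor for the macrophage growth factor, read 11.47, 12.27 and 12.07 in the higher-score mice, against 11.89, 11.99 and 11.80 in the lower-score mice. C1qa, the gene that separated, read 10.53, 10.67 and 10.73 against 10.21, 10.45 and 10.18. Mouse 18 had the highest macrophage mean of the 6 AL + VC mice, 10.37, as well as the highest endothelial (8.69) and stromal (10.32) means.

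Of the dendritic cell genes 11 of 12 and of the stromal genes 9 of 10 had positive differences, with 4 of 12 and 2 of 10 higher without overlap, against 20.3% of all genes. Cd209a, a lectin gene of one subset of conventional dendritic cells and of monocyte-derived cells, read 5.23, 6.45 and 5.47 in the higher-score mice, against 4.14, 3.49 and 4.43 in the lower-score mice. Xcr1, the chemokine receptor gene of cross-presenting dendritic cells, read 6.41, 7.41 and 5.22 against 5.04, 5.47 and 5.71, with overlap through mouse 41. Cxcl13, the chemokine that draws B cells into follicles, read 9.88, 11.08 and 9.97 against 9.23, 8.63 and 9.90, where mouse 37 overlapped mouse 17. Flt3, a receptor gene of dendritic cells and early progenitors, was lower without overlap (-0.52).

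Interferon-stimulated genes, p53 targets, mitochondrial mRNAs and autophagy genes had median differences between -0.32 and 0.17. The 16 interferon-stimulated genes had a median difference of 0.01, and Rsad2 spread within both sets, at 8.45, 10.18 and 7.65 in the higher-score mice, against 8.38, 12.11 and 7.76 in the lower-score mice. The 10 p53 targets had a median difference of 0.17, and the 9 mitochondrial mRNAs one of -0.32 with overlap in all 9. Of 15 autophagy-related genes, some of them named by the study, 2 were higher and 3 lower without overlap, a share no larger than the 20.3% and 21.3% of all genes. This count pools genes that the study reported in opposite directions. In FMD + VC, against AL and AL + VC, it gave Ulk1, Atg4, Atg9a and Atg9b as down and Sqstm1 and Fez1 as up. Between the 2 AL + VC sets, a different comparison, Atg9a, Atg9b and Sqstm1 separated in those directions, and Ulk1 and the Atg4 genes overlapped. Fez1 is not on the list. Map1lc3a, which encodes an LC3 protein of the autophagosome, read 6.69, 6.55 and 6.55 in the higher-score mice, against 5.64, 5.75 and 5.75 in the lower-score mice. The autophagy receptor gene Sqstm1 read 11.27, 11.29 and 11.43 against 10.63, 11.04 and 10.85. Atg9b read 3.85, 3.89 and 3.35 against 4.94, 4.66 and 5.08, and Atg9a (-0.47) and Hmgb1 (-0.37) were lower as well, while Becn1 (0.00) and Ulk1 (-0.22) overlapped. Immediate-early genes had a median difference of 0.71, and 5 of 9 were higher and 1 lower without overlap, against 20.3% and 21.3% of all genes, with Egr1 at 9.88, 9.10 and 8.86 against 7.70, 7.10 and 7.92, and Jun lower (-0.61). Exocrine pancreas and adipocyte lists had 1 gene each over the minimum.

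Because the split used the AL + VC libraries, the relation of each gene to the B-cell score was tested in the 18 other mice, within the AL, FMD and FMD + VC groups (limma with group and score, Benjamini-Hochberg adjusted over 16559 genes). The slope is the change in a gene's rlog value per unit of the score between mice of the same group. Of all genes 155 rose with the score (0.936%) and 27 fell (0.163%), 1.1% in all, and at an unadjusted p under 0.05 the counts were 1533 (9.26%) and 1429 (8.63%). Of the 155 genes 25 belonged to the B lineage, and the other 130 still held genes that B cells use, such as H2-Eb2 and Cnr2, named here after their values were seen. These counts rested on few mice: without FMD mouse 9, which has the highest score of its group and the largest share of Gm26917 of all 24 libraries, 17 rose and 1 fell, without FMD + VC mouse 45 the counts were 68 and 2, and without FMD + VC mouse 42 they were 298 and 116. Without any 1 of AL mouse 3, FMD mice 8, 26 and 34 and FMD + VC mice 21, 29 and 30, between 85 and 98 genes rose and between 6 and 15 fell, and without AL mice 25 or 32 or FMD mouse 7 the genes that fell numbered 93, 108 and 47.

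Outside the B lineage no member of any cell type or pathway list passed the test over the 18 mice. For Mpo the slope was -1.52 (SE 0.40, limma adjusted p = 0.0773), for S100a8 -1.44 (adjusted p = 0.0845) and for Ltf -1.21 (adjusted p = 0.126). At an unadjusted p under 0.05, 5 of 6 primary and 9 of 11 secondary and tertiary granule genes fell with the score, against 8.63% of all genes. Cd3e had a slope of 0.77 (limma adjusted p = 0.0935), and 5 of 22 T-cell genes passed at an unadjusted p under 0.05 in that direction, against 9.26%. Slopes of Socs2 (-1.04, limma adjusted p = 0.14), Pf4 (-0.54, adjusted p = 0.349), Ccnb1 (-0.51, adjusted p = 0.4) and Xist (-1.18, adjusted p = 0.229) were negative and did not pass. In FMD + VC alone the slopes were larger and passed for Mpo (-3.96, limma adjusted p = 0.00269), Ltf (-3.91), S100a8 (-3.42), Xist (-3.54), Socs2 (-2.28), Pf4 (-2.14), Ccnb1 (-1.20) and Cd3e (1.06), while in AL alone and FMD alone no gene passed. The FMD + VC fit rested on 6 mice, of which mouse 45 had the lowest score (11.74, next 12.10 in mouse 42). Mouse 45 also had the highest primary granule mean of that group (5.32, next 4.15 in mouse 42). These slopes may therefore rest on 1 mouse, and FMD + VC alone without mouse 45 was not run. For macrophages, whose genes overlapped in AL + VC, all 17 slopes were below 0 and 10 of 17 passed unadjusted, so in the other mice this list moved more with the score than it did among the AL + VC mice, although the difference was not tested.

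The genes that passed were then read in the AL + VC mice, and those named below were chosen after their values were seen. Of the 130 that rose outside the B lineage, all 130 had a positive difference between higher-score and lower-score mice and 118 did not overlap, against 20.1% of all genes outside the B lineage. Of the 27 that fell, 25 had a negative difference and 19 did not overlap, against 21.6%. Fads2, a desaturase of polyunsaturated fatty acids (chromosome 19, 10062765 to 10101746, GRCm38), fell by 0.98 per unit of the score (SE 0.11, limma adjusted p = 0.0001965), and read 7.45, 7.57 and 7.13 in mice 17, 18 and 41, against 8.79, 8.96 and 9.15 in mice 13, 14 and 37. Mt1, the metal-binding metallothionein 1 gene, fell by 0.92 (SE 0.18, limma adjusted p = 0.01765), and read 6.73, 7.23 and 7.44 against 8.87, 9.12 and 8.84 in the lower-score mice. Tkt, the transketolase of the pentose phosphate pathway, fell by 0.56 (SE 0.11, limma adjusted p = 0.0243), and read 11.03, 11.35 and 11.27 against 12.07, 12.29 and 12.44. Rgs18, a regulator of G-protein signalling in platelets and myeloid cells, read 7.40, 8.20 and 7.65 against 9.51, 9.56 and 9.13 in the lower-score mice, with a slope of -0.85 (limma adjusted p = 0.04015). The proteasome subunit genes Psmd8, Psma6 and Psmb2 were also among the genes that fell, with slopes of -0.36, -0.46 and -0.47. Only 1 gene in all fell without FMD mouse 9, and only 2 without FMD + VC mouse 45. Most of the falling genes named here therefore did not pass in those fits. Without FMD mouse 9 or without FMD + VC mouse 45, the test was no longer passed by Mt1 (limma adjusted p = 0.157 and 0.0618) or by Tkt (limma adjusted p = 0.209 and 0.0948), and without FMD + VC mouse 30 not by Tkt (0.0504). With library weights the slopes were -0.58 for Mt1 (limma adjusted p = 0.21) and -0.43 for Tkt (0.146), and neither passed. Skap1, an adaptor of T-cell receptor signalling, had a slope of 0.77 and missed the threshold (limma adjusted p = 0.0506).

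**Figure D5:**
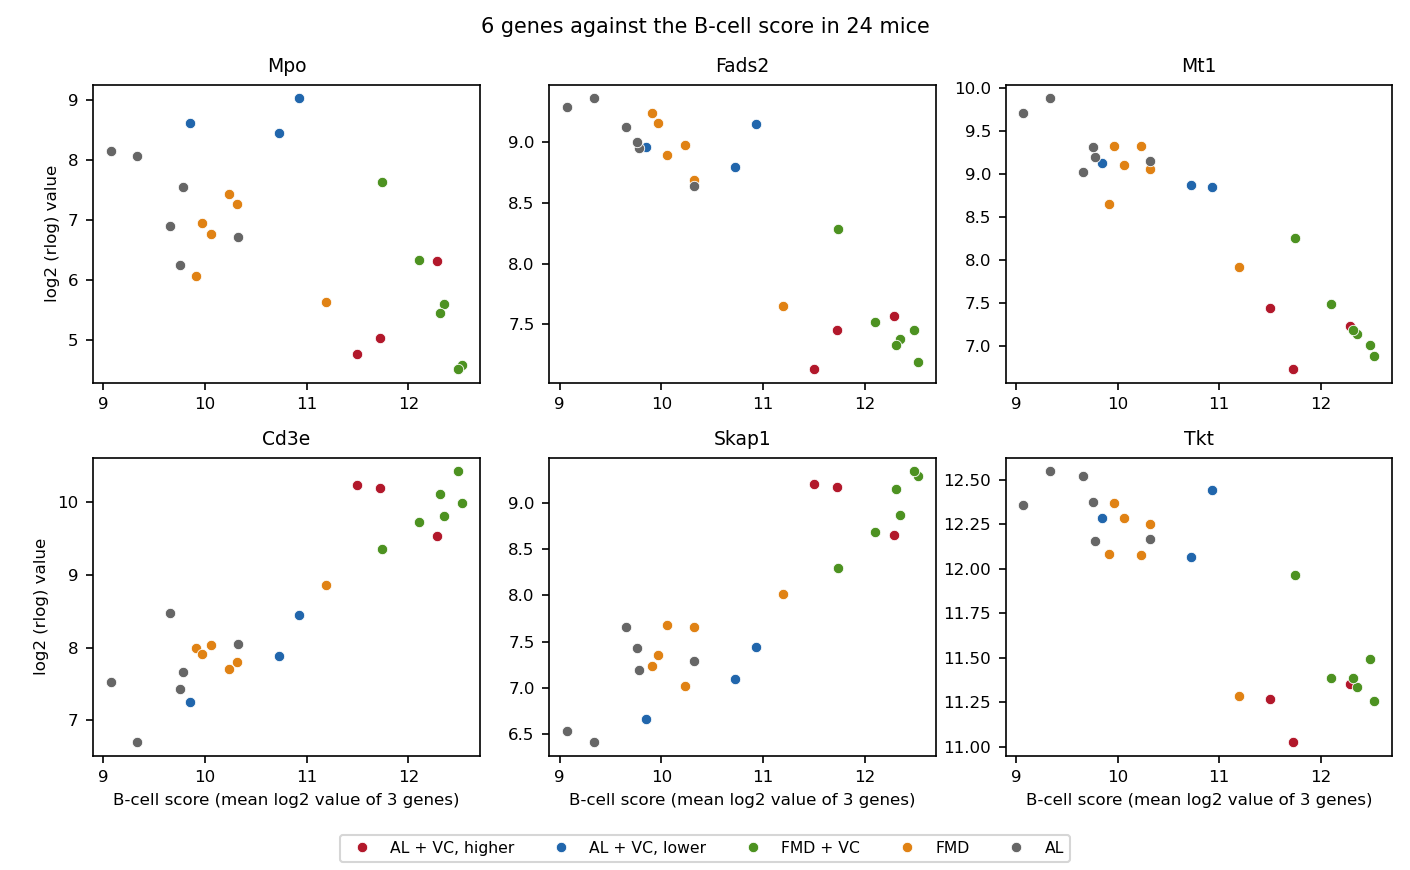
Each point is 1 of 24 mice, with the B-cell score on the x axis and the rlog value of the gene named above the panel on the y axis, coloured by group and, within AL + VC, by set. The lower-score AL + VC mice lie at 8.46 or higher for Mpo, above the AL and FMD mice, and within the spread of those groups for Cd3e and Skap1.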

How the data were processed

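Total RNA from the spleens of 24 leukemic male mice was sequenced after ribosomal RNA depletion. The authors used HISAT2 2.1.0 for alignment and HTSeq 0.6.1 for gene counts, and deposited regularized log2 values (rlog) from DESeq2, which shrink low counts; the submitters' processing notes name the builds GRCm38 and GRCh38. The deposited log2 values hold no counts, so the depth of each library is unknown and no count test or counting interval could be given.

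The table has 46078 rows, of which 13174 are at 0 in every mouse. Another 16345 rows, with a mean under the log2 of 10, were left out, which leaves 16559 genes. The 227 B-lineage genes among them were left out of the descriptions of genes and lists in the 2 AL + VC sets. Counts over all genes and the correlations include them. Differences are means of the higher-score minus the lower-score mice, and no test was run on them; a gene does not overlap when all 3 mice of one set exceed all 3 of the other. In the 18 other mice, limma 3.58.1 (R 4.3.3; empirical Bayes moderation with a mean-variance trend) was fitted over all 16559 genes, with Benjamini-Hochberg adjustment and a threshold of 0.05, for FMD + VC against AL and for the slope on the B-cell score within groups. The fits were tested on simulated data. Tables and plots were made with Python 3.11.15, pandas 2.3.3 and matplotlib 3.10.9. Each library is taken as 1 mouse by its number in the labels.

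The split, its members and all gene lists were chosen with earlier results of these data known. Named genes are the 15 with the largest positive and the 15 with the largest negative difference without overlap, up to 6 members of each list by size of difference with members needed to say what did not differ, Xist, the Y-linked genes, Gm26917 and the autophagy genes; others are named as chosen after their values were seen. Of the genes on the lists, 3 are not among the names of the table. Gene positions are from GENCODE (GRCm38) and promoters from RefSeq (GRCm38.p6). Alternatives changed the minimum, the normalization, the score, the library weights and the mice included.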

Additional observations from a re-analysis of the deposited data

Results flagged for a closer look

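Of 63 gene values in AL + VC and 104 list means and scores over the 4 groups, 9 had 1 mouse set apart from its group by a gap larger than Dixon's critical value allows, where chance gives about 1 in 20 groups. Within AL + VC, mouse 18 of the higher-score set had an endothelial mean of 8.69, above its 5 group mates, and mouse 14 of the lower-score set had an autophagy gene mean of 8.66. In FMD + VC, mouse 45 stood apart with a cell cycle mean of 9.54, a DNA replication mean of 9.47 and a progenitor and BCR-ABL target mean of 9.86. In FMD, mouse 9 stood apart with a B-cell score of 11.19, mouse 7 with a dendritic cell mean of 8.32 and mouse 11 with a DNA replication mean of 10.50. In AL, mouse 32 had a DNA replication mean of 11.14. Their causes were not tested.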

How the results depend on the processing

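Among the AL + VC mice, leaving out each in turn gave between 273 and 616 genes higher and between 743 and 946 lower, against 404 and 803 with all 6, and the 616 came without mouse 37. With 1 mouse fewer, no overlap is easier to reach, so these counts are not at the same stringency. The counts of FMD + VC against AL stayed within 1.5 times of 3417 and 3497 in all alternatives run. The slope counts, 155 up and 27 down, depended on the settings: 89 and 8 with no minimum, 545 and 484 with the score of the other 7 B-cell genes, 61 and 9 with library weights, 70 and 4 without the 2 mice farthest from the median score, and 236 and 573 in FMD + VC alone. AL alone and FMD alone gave 0 and 0 by limma; at an unadjusted p under 0.05 AL alone gave 876 up and 669 down, and FMD alone 1514 up and 1572 down. Leaving out 1 mouse gave between 17 and 298 up and between 1 and 116 down. The slope changed sign for Ccnb1 (0.26) and Pf4 (0.14) in FMD alone and for Socs2 (0.39) and Xist (1.10) in AL alone, none of which passed the test. Of the genes that missed the threshold, Skap1 passed under 9 alternatives, Cd3e also without AL mouse 6 (limma adjusted p = 0.0459) and with the 7-gene score (0.00739), Mpo without FMD mouse 7 (0.0294) and Socs2 without AL mouse 32 (0.0258), beside those that passed in FMD + VC alone. Without the 2 mice farthest from the median score, Mt1 (0.0601) and Tkt (0.0584) did not pass. Tkt also missed with quantile normalization (0.122) and in FMD + VC alone (0.0689), and Fads2, Mt1 and Tkt missed in AL alone and FMD alone. No cause was tested. No paired analysis was possible because the mouse numbers are not shared between groups. With depth unknown, low values cannot be weighed by their counts.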
